A study of Mus musculus with 16 samples.

Results

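The addition of an agonist antibody against CD40 to treatment with the MEK inhibitor GDC-0623 was examined in B16-OVA melanomas, as 4 MEKi+CD40 tumors against 4 MEKi tumors of a series of 16. The 8 tumors were taken by their treatment labels, and all 45037 probe sets other than the Affymetrix controls entered the comparison. B16-OVA is 1 mouse melanoma cell line that carries ovalbumin, and the cells had been injected under the skin of C57BL/6-Ly5.1 mice that were 6 to 12 weeks old. Both groups received GDC-0623 at 30 mg/kg every day. MEKi+CD40 mice also received the mouse IgG1 antibody against CD40 on treatment days 3, 5 and 7 and again 1 day before analysis, while MEKi mice received control IgG. Tumors were collected 18 days after inoculation, and each tumor gave 1 array. The other 8 tumors, used only to set the effect of the antibody with the inhibitor beside its effect without it, came from mice given vehicle with control IgG (Control) or vehicle with the antibody (CD40). The labels name whole tumor as the source, so that cells of the host are measured together with the melanoma, and fewer cells of a type cannot be told apart from less RNA per cell.

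CD40 is a receptor of the TNF receptor family on dendritic cells, macrophages and B cells. When T helper cells engage it, or an agonist antibody does so in their place, antigen-presenting cells raise their antigen presentation machinery and costimulatory ligands and prime cytotoxic T cells, whose interferon gamma in turn induces a large set of genes in tumor and host cells. MEK activates ERK, the last kinase of a growth signalling cascade that drives the cell cycle, and its inhibition slows the division of tumor cells. Whether the antibody can still act on the tumor during treatment with a MEK inhibitor is the question that the comparison addresses.

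Signals are RMA values on the log2 scale, and differences are MEKi+CD40 minus MEKi in log2 units with the standard error of the limma fit and 4 tumors per group. A gene was called when its adjusted p (Benjamini-Hochberg over all 45037 probe sets) was under 0.05, and the brightest probe set stands for each of 18193 genes. Groups are said not to overlap when every tumor of one lies above every tumor of the other. A score is the mean signal over the genes of a list in 1 tumor. Melanocyte genes marked all 8 tumors, with scores of the melanocyte and pigment list between 11.83 and 12.28. Probe sets of olfactory receptors, which a tumor should lack, put the background at 4.95, and 39.9% of the probe sets lay below it.

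Of the 4 MEKi+CD40 tumors, 2 held transcripts of skeletal muscle. The muscle score was 11.39 in MEKi+CD40 tumor 1 and 8.53 in MEKi+CD40 tumor 3, against 4.66 and 4.73 in MEKi+CD40 tumors 2 and 4 and between 4.71 and 5.44 in the MEKi tumors. All 19 muscle genes had a higher mean in MEKi+CD40, and Myh4, a fast myosin heavy chain, reached 12.17 and 9.26 in tumors 1 and 3 while it lay between 2.92 and 3.20 in the other 6. The fibroblast and matrix score was also high in MEKi+CD40 tumors 1 and 3, at 11.90 and 10.02, but MEKi tumor 3 reached 10.62. For Actb the 3′ signal exceeded the 5′ signal by 0.91 in MEKi+CD40 tumor 1, against 0.44 or less in the remaining tumors. Differences were therefore computed without MEKi+CD40 tumors 1 and 3 as well. In all 282 called genes the 2 groups did not overlap, so that leaving out tumors could not turn a sign. Their differences were then 0.66 to 1.21 times those with all tumors, with a median of 0.86. For genes that were not called, the value without these tumors is given for most whose difference moved by more than 1.5 times. For 17 of 101 genes described with a value, the mean of 1 or both groups lay below background, so that their differences start from or end at background signal.

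**Figure D1:**
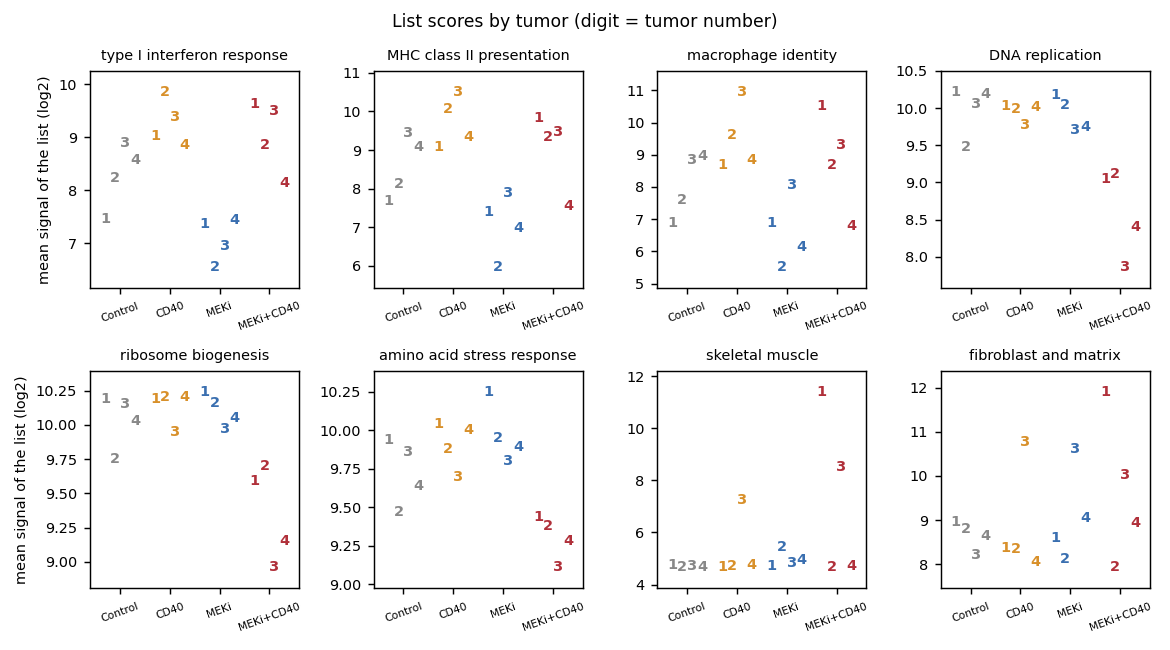
Mean log2 signal of 8 gene lists in each of the 16 tumors, by group, with the tumor number as the plotting symbol and a separate vertical scale per panel. DNA replication, ribosome biogenesis and amino acid stress scores of all 4 MEKi+CD40 tumors lie below those of the other 12 tumors, while MEKi+CD40 tumors 1 and 3 stand apart in the muscle panel.

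Adding the antibody to the MEK inhibitor was accompanied by higher interferon-response genes and lower genes of DNA replication, ribosome assembly and the amino acid stress response. Of the 45037 probe sets, 518 (1.15%) were called, 237 higher and 281 lower. Per gene, 139 of 18193 were called higher (0.764%) and 143 lower (0.786%), and in all 282 the 2 groups did not overlap. Without regard to the test, 1282 genes lay higher without overlap (7.05%) and 1636 lower (8.99%). The counts without overlap given below for single lists are to be read against these shares. Among called probe sets, 101 rose by more than 1 log2 unit and 22 by more than 2, whereas 92 fell by more than 1 and 4 by more than 2.

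The calls sat close to the threshold. The adjusted p of the 518 probe sets ran only from 0.0496 to 0.04999, and 9147 probe sets had an unadjusted p under 0.05. No probe set was called without MEKi+CD40 tumors 1 and 3, where the smallest limma adjusted p was 0.1374 with 6441 probe sets at an unadjusted p under 0.05. All 518 kept the sign of their difference, which was fixed beforehand for every called gene because its groups did not overlap. No call was left either without MEKi tumor 1, 2 or 3 or without MEKi+CD40 tumor 3, each alone, and 68 were left without MEKi tumor 4. Leaving out MEKi+CD40 tumor 1, 2 or 4 gave 915, 1454 and 480 calls. The gap between higher and lower genes also moved with the scaling. Without overlap lay 2349 probe sets higher and 3527 lower on the deposited scale, and 3126 higher and 3054 lower after cyclic loess.

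**Figure D2:**
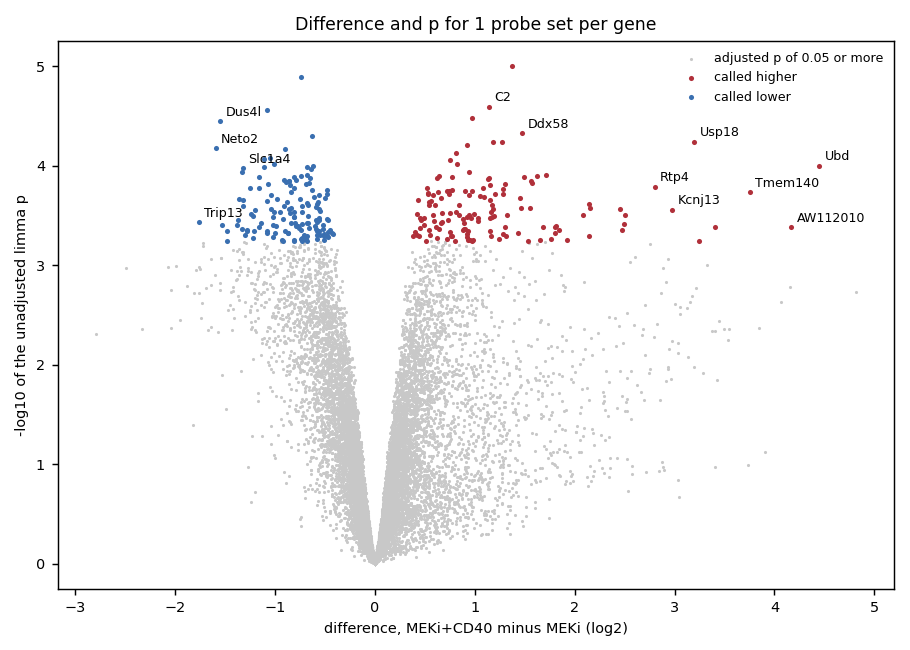
Difference between MEKi+CD40 and MEKi on the log2 scale (horizontal) against −log10 of the unadjusted limma p (vertical) for 18193 genes, 1 probe set each, with 139 genes called higher in red and 143 called lower in blue. Ubd lies farthest to the right among called genes at 4.45, and Trip13 farthest to the left at −1.76.

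Genes of the type I interferon response formed the largest called group among the lists examined. All 21 measured genes had a higher mean in MEKi+CD40, 16 of them without overlap, and 9 rose past the test, namely Ifit1, Ifit3, Rsad2, Usp18, Irf9, Ddx58, Rtp4, Xaf1 and Bst2. The median difference over the list was 1.86, against 0.005 over all genes, and 1.29 without the tumors with muscle transcripts. Most of these genes encode proteins that restrict viral RNA or carry the interferon signal.

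Usp18, a protease that strips the ubiquitin-like ISG15 from proteins and dampens interferon receptor signalling, measured 7.06, 5.95, 6.37 and 7.20 in MEKi tumors 1 to 4 and 10.02, 9.74, 10.79 and 8.82 in MEKi+CD40 tumors 1 to 4. The lowest MEKi+CD40 tumor, number 4, was still above every MEKi tumor, and the difference was 3.20 ± 0.43 (SE), a ratio of 9.17. Without tumors 1 and 3 it was 2.63.

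Ifit1, which binds RNA that lacks the host cap methylation, measured 7.29, 5.90, 5.85 and 7.09 in MEKi tumors and 10.89, 9.57, 10.88 and 8.40 in MEKi+CD40 tumors, again without overlap and with tumor 4 the lowest of its group. Its difference was 3.40 ± 0.60, and that of its neighbour in the family, Ifit3, was 3.25 ± 0.60. Ddx58, the cytosolic sensor RIG-I, rose by 1.48 ± 0.19, from between 7.92 and 8.69 to between 9.47 and 10.18. Rtp4 rose by 2.80 ± 0.43, Xaf1, a proapoptotic interferon target, by 2.14 ± 0.35, and Bst2, the tetherin that holds budding virions at the cell surface, by 1.81 ± 0.32.

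The interferon-stimulated response element, to which the factor ISGF3 and interferon regulatory factors bind, was looked for in promoters of these genes because members of the list rose together. RefSeq windows (GRCm38.p6) reach from 250 bases before to 50 bases after a transcript start, and 2 copies of the half-site GAAA in the same orientation with 2 bases between them were searched on both strands. This pair occurred in 9 of the 16 genes of the type I interferon list that have a window (56.2%), in 8 of 12 of the interferon gamma list (66.7%) and in 11 of the 114 genes called higher that have one (9.65%). Of all 32851 windows 3.44% held the pair, and of the 14452 measured genes with a window 3.63%. The promoters of called genes Ifit1, Bst2 and Ctso are printed from 5′ to 3′ on the strand of the gene, with every match, some of them overlapping, in capitals.
Ifit1, chr19:34640639-34640938, + strand: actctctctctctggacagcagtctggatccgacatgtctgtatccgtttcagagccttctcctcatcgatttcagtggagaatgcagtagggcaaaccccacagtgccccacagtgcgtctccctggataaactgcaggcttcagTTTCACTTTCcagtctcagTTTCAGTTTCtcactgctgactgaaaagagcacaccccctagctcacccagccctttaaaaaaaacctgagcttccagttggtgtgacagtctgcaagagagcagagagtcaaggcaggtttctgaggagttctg
Bst2, chr8:71537423-71537722, - strand: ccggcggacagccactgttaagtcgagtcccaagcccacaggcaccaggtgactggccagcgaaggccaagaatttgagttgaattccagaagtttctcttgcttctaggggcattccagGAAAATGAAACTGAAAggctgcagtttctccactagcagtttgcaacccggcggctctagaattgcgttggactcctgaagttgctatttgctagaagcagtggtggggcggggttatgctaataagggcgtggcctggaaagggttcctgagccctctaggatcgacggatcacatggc
Ctso, chr3:81932351-81932650, + strand: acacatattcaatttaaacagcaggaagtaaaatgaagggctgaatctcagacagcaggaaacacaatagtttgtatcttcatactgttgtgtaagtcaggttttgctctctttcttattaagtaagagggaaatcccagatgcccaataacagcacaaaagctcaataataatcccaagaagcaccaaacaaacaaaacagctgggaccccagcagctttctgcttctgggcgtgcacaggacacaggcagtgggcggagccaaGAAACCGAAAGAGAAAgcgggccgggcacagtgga
Ifit1 holds 2 matches apart from each other, and Bst2 and Ctso hold 2 matches each that overlap. The match is a description of the letters and does not show binding.

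The called gene with the largest difference was Ubd, which encodes the ubiquitin-like modifier FAT10 that interferon gamma and TNF induce. It measured between 4.48 and 5.06 in the MEKi tumors, at or near background, and 9.66, 8.70, 10.76 and 7.25 in MEKi+CD40 tumors 1 to 4. Since 3 of the 4 MEKi tumors lay below background, the difference of 4.45 ± 0.64, which was 3.33 without tumors 1 and 3, is a lower bound on the change. Ubd was the only called gene among the 17 of the interferon gamma list, although all 17 had a higher mean and 9 did not overlap. The median difference of that list was 3.14 with all tumors and 2.37 without tumors 1 and 3.

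Cxcl9, the interferon gamma-induced chemokine that draws CXCR3-bearing T cells, measured 8.41, 6.42, 4.85 and 7.95 in MEKi tumors and 12.36, 11.21, 11.62 and 9.05 in MEKi+CD40 tumors. The groups did not overlap, but the wide spread within MEKi left the difference of 4.15 ± 0.91 at a limma adjusted p of 0.0585. Cxcl10, a chemokine for the same receptor, overlapped between the groups, with a difference of 0.83 ± 0.65 (limma adjusted p = 0.542) that was 0.29 without tumors 1 and 3. The kinase gene Jak2, which transmits the interferon gamma signal, differed by 0.65 ± 0.13 and the GTPase gene Irgm2 by 3.22 ± 0.71, at limma adjusted p-values of 0.0551 and 0.0586. Jak2 differed by 0.41 without tumors 1 and 3.

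Other genes among the 12 largest called increases were the interferon-induced transcript AW112010 (4.17 ± 0.74), Tmem140 (3.75 ± 0.59), the mono-ADP-ribosyltransferase gene Parp14 (2.50 ± 0.43), the cathepsin gene Ctso (2.49 ± 0.44), Il18bp, which encodes the secreted antagonist of interleukin 18 (2.48 ± 0.44), and Phf11d (2.45 ± 0.41). In each of the 6, MEKi+CD40 tumor 4 was the lowest of its group. Kcnj13, an inwardly rectifying potassium channel gene, does not belong to any list. It measured 10.09, 10.06, 9.81 and 12.10 in MEKi tumors and 13.49, 13.69, 13.95 and 12.83 in MEKi+CD40 tumors. MEKi tumor 4 stood above the other MEKi tumors and nearest to the MEKi+CD40 range, and the difference was 2.98 ± 0.50 with all tumors and 2.75 without tumors 1 and 3.

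**Figure D3:**
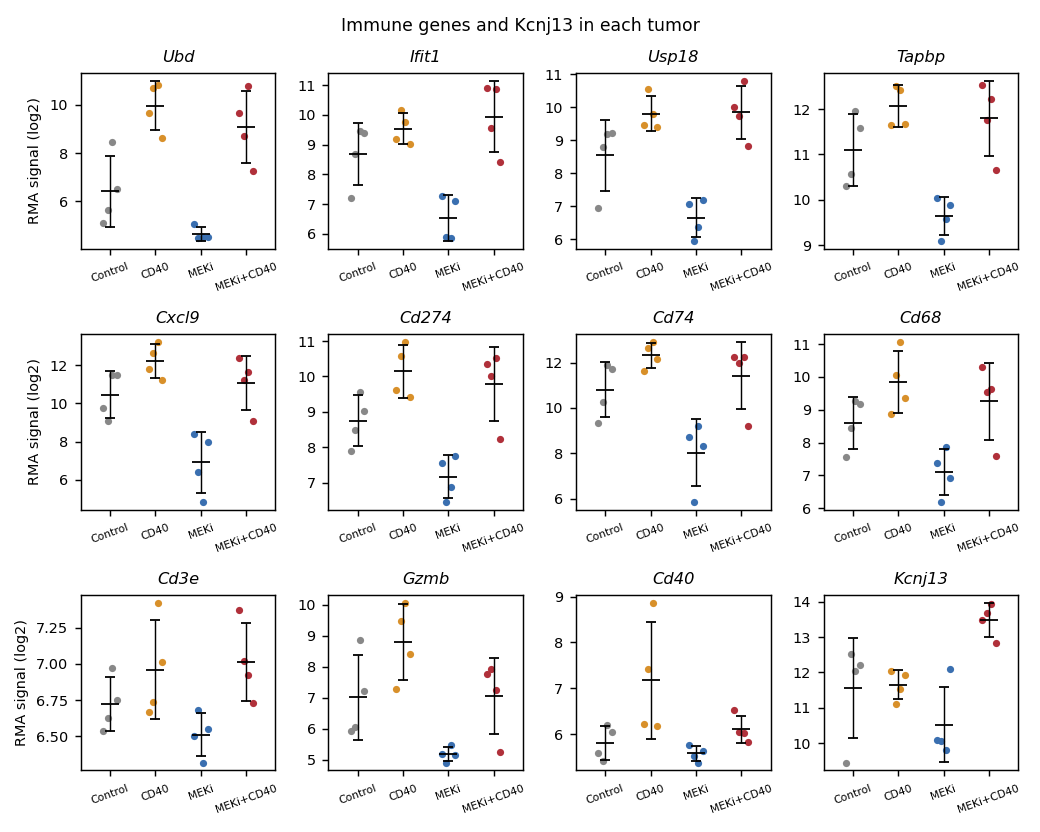
RMA signal on the log2 scale of 12 genes in each tumor of the 4 groups, with black bars for the mean and SD of 4 tumors and a separate vertical scale per panel. Ubd, Ifit1, Usp18, Tapbp, Cxcl9, Cd274, Cd40, Cd3e, Cd74 and Kcnj13 do not overlap between MEKi and MEKi+CD40, whereas Cd68 and Gzmb overlap through MEKi+CD40 tumor 4.

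Antigen presentation genes lay higher with the antibody, but few passed the test. In the list of MHC class I and peptide loading, 14 of 15 genes had a higher mean, 9 did not overlap, and Tapbp, encoding the tapasin that bridges class I molecules to the peptide transporter, was the 1 that rose past it. Tapbp measured 10.04, 9.10, 9.57 and 9.88 in MEKi tumors and 12.53, 11.77, 12.22 and 10.66 in MEKi+CD40 tumors, a difference of 2.15 ± 0.39. The class I heavy chain genes H2-D1 (1.77 ± 0.34, limma adjusted p = 0.051) and H2-K1 (1.43 ± 0.32, limma adjusted p = 0.0597) did not overlap either. The immunoproteasome gene Psmb8 and the transporter gene Tap1 had larger differences, 3.38 ± 0.88 and 2.68 ± 0.69, but overlapped, since MEKi+CD40 tumor 4 lay below MEKi tumor 1 for both. The median of the list was 1.61, and 1.30 without tumors 1 and 3.

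All 11 genes of MHC class II presentation had a higher mean, with a median of 2.74 and of 1.76 without tumors 1 and 3, yet none was called. Cd74, the invariant chain of class II, measured 8.70, 5.87, 9.20 and 8.31 in MEKi tumors and 12.24, 11.99, 12.26 and 9.21 in MEKi+CD40 tumors. MEKi+CD40 tumor 4 was thus level with the highest MEKi tumor while the other 3 lay far above, and the difference was 3.41 ± 0.89 (limma adjusted p = 0.078). H2-DMa, which loads peptides onto class II, differed by 3.33 ± 0.67 (limma adjusted p = 0.0535), and H2-Ab1, a class II beta chain, by 3.03 ± 0.87 (limma adjusted p = 0.0963), with overlap.

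Markers of macrophages and of leukocytes as a whole had higher means in MEKi+CD40, and none was called. All 20 macrophage genes had a higher mean, with a median of 2.31 and none without overlap, and the median was 1.38 without tumors 1 and 3. The macrophage score was 10.51, 8.68, 9.30 and 6.80 in MEKi+CD40 tumors 1 to 4 and 6.89, 5.51, 8.06 and 6.14 in MEKi tumors 1 to 4. MEKi+CD40 tumor 4 lay inside the MEKi range. The lysosomal glycoprotein gene Cd68 differed by 2.16 ± 0.58, Mpeg1, which encodes a pore-forming protein of phagocytes, by 2.97 ± 0.81, Aif1 by 2.80 ± 0.75 and the Fc receptor gene Fcgr4 by 2.49 ± 0.68, at limma adjusted p-values between 0.0818 and 0.0868. Without tumors 1 and 3 the differences were 1.95 for Mpeg1, 1.82 for Aif1 and 1.53 for Fcgr4. Of the pan-leukocyte genes 13 of 14 had a higher mean, with a median of 1.56 and of 0.90 without tumors 1 and 3. Cd48 did not overlap (1.96 ± 0.50, limma adjusted p = 0.0748). Arhgdib was the exception, at −0.55 ± 0.15 (limma adjusted p = 0.0902) and −0.33 without tumors 1 and 3.

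Neither polarisation list changed by a called gene. The median of 13 M1-type genes was 0.68 and that of 14 M2-type genes 0.69, and without tumors 1 and 3 these were 0.04 and 0.02. Nos2, the inducible nitric oxide synthase of M1-type macrophages, differed by −0.07 ± 0.13, and by −0.18 without tumors 1 and 3. Other M1-type genes had higher means. Acod1, which makes itaconate, differed by 2.68 ± 0.71 and the formyl peptide receptor gene Fpr2 by 1.74 ± 0.44, both without overlap, and Slamf7 by 1.32 ± 0.40, at limma adjusted p-values between 0.0731 and 0.1081. Among M2-type genes, the transglutaminase gene Tgm2 differed by 2.70 ± 0.78, Chil3 by 2.10 ± 0.88 and the beta-glucan receptor gene Clec7a by 2.02 ± 0.84, all with overlap. Without tumors 1 and 3 the differences were 1.60 for Acod1, 1.02 for Fpr2, 0.70 for Slamf7, 1.52 for Tgm2, 0.47 for Chil3 and 1.18 for Clec7a. The mannose receptor gene Mrc1 differed by 1.02 ± 1.13 and the arginase gene Arg1 by 1.12 ± 1.17, both M2-type markers, with a single MEKi+CD40 tumor, number 1, above all MEKi tumors. Without these tumors Mrc1 differed by 0.05 and Arg1 by −0.25.

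T cell genes ranged widely in their differences. Of 17 genes for the T cell receptor complex and coreceptors, 16 had a higher mean and 5 did not overlap, with a median of 0.43 and of 0.23 without tumors 1 and 3, and none was called. Cd3e, a chain of the receptor complex, measured 6.50, 6.68, 6.32 and 6.55 in MEKi tumors and 7.37, 7.02, 6.92 and 6.73 in MEKi+CD40 tumors, a difference of 0.50 ± 0.14 (limma adjusted p = 0.0977). Cd3g, another chain, differed by 1.98 ± 0.56 and Cd8b1, the beta chain of CD8, by 1.25 ± 0.32, at limma adjusted p-values of 0.0942 and 0.0749. Ms4a4b, a membrane protein gene of lymphocytes, had the largest difference of the list, 3.06 ± 0.74 with overlap (limma adjusted p = 0.0678). Without tumors 1 and 3 the differences were 1.18 for Cd3g, 0.82 for Cd8b1 and 2.09 for Ms4a4b, and the MEKi means of these 3 genes lay below background. Cd8a, the alpha chain of CD8, differed by 0.13 ± 0.09, and Foxp3, the factor of regulatory T cells, by −0.01 ± 0.07. Both Foxp3 means, 4.805 in MEKi and 4.798 in MEKi+CD40, lay below background, so that its difference cannot show whether the transcript changed. Among cytotoxic effectors, where 16 of 18 genes had a higher mean, Gzmb measured between 4.91 and 5.47 in MEKi tumors and 7.76, 7.92, 7.26 and 5.25 in MEKi+CD40 tumors (1.88 ± 0.53, limma adjusted p = 0.0948). MEKi+CD40 tumor 4 thus lay among the MEKi tumors. Ifng overlapped too, at 1.18 ± 0.55 (limma adjusted p = 0.279) and 0.55 without tumors 1 and 3.

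Cd40 itself, the target of the antibody, measured 5.78, 5.54, 5.39 and 5.64 in MEKi tumors and 6.53, 6.06, 6.04 and 5.83 in MEKi+CD40 tumors. The groups did not overlap, by a narrow margin between MEKi tumor 1 and MEKi+CD40 tumor 4, and the difference of 0.53 ± 0.16 was not called (limma adjusted p = 0.103). None of 18 genes of CD40 and noncanonical NF-kB signalling was called, with a median of 0.57 that was 0.14 without tumors 1 and 3. Of these, the inhibitor gene Nfkbie differed by 0.98 ± 0.31, the adaptor gene Traf1 by 0.84 ± 0.28 and the adhesion molecule gene Icam1 by 2.13 ± 0.72. Without tumors 1 and 3 these were 0.58, 0.31 and 0.97. Nor was any of 20 genes of dendritic cell maturation called, with a median of 0.11 that was 0.05 without tumors 1 and 3. Only 10 of these 20 had a mean above background in 1 or both groups. Cd274, which encodes PD-L1, the ligand of the inhibitory receptor PD-1, had the largest difference of these 20. It measured 7.57, 6.47, 6.88 and 7.77 in MEKi tumors and 10.35, 10.01, 10.51 and 8.25 in MEKi+CD40 tumors, without overlap and with a difference of 2.61 ± 0.51 just outside the threshold (limma adjusted p = 0.0522). Ido1, the tryptophan-degrading enzyme of the inhibitory list, did not overlap at 1.06 ± 0.40 (limma adjusted p = 0.181), and differed by 0.27 without tumors 1 and 3.

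Single immune genes were called higher in other lists, while 0.764% of all genes were called higher. Cxcr6, a chemokine receptor of effector and resident T cells, rose by 0.92 ± 0.17 from a MEKi mean of 4.46, below background. It was the only called gene among 15 chemokine receptors, of which 11 had a higher and 4 a lower mean. Their median was 0.13, and 0.12 without tumors 1 and 3. Tlr3, the endosomal sensor of double-stranded RNA that cross-presenting dendritic cells use, rose by 0.76 ± 0.14. It was the only called gene among 13 of conventional dendritic cells, of which 9 had a higher and 4 a lower mean. The median of these 13 was 0.39, and 0.005 without tumors 1 and 3. C2, a protease of the classical complement pathway, rose by 1.14 ± 0.14, from between 10.82 and 11.29 to between 11.94 and 12.35, and all 11 complement genes had a mean at or above that of MEKi. Ikzf2, known as Helios, rose by 0.68 ± 0.12 as the only called gene among 10 regulatory T cell genes. Of these 10, 7 had a higher and 3 a lower mean, with a median of 0.27 that was 0.08 without tumors 1 and 3. No chemokine of 20 was called. The chemokine Ccl5 differed by 2.88 ± 0.59 (limma adjusted p = 0.0544), and the median of the 20 was 0.87 with all tumors and 0.14 without tumors 1 and 3. Zbp1, a sensor of nucleic acids in necroptosis, differed by 2.94 ± 0.58 (limma adjusted p = 0.0523).

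DNA replication was the list with the largest share of genes lower without overlap. All 31 genes had a lower mean in MEKi+CD40, 30 of them without overlap, and Tyms and Orc6 fell past the test. The median was −1.33 with all tumors, −1.19 without tumors 1 and 3, and −1.33 once the muscle score entered the fit. The score was 10.17, 10.04, 9.70 and 9.75 in MEKi tumors 1 to 4 and 9.04, 9.11, 7.86 and 8.40 in MEKi+CD40 tumors 1 to 4. MEKi+CD40 tumors 1 and 3, which held muscle transcripts, thus stood at 9.04 and 7.86, and tumors 2 and 4, which did not, at 9.11 and 8.40.

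Tyms, the enzyme that makes thymidylate for DNA synthesis, measured 6.94, 6.61, 6.66 and 6.45 in MEKi tumors and 5.64, 5.48, 4.63 and 5.46 in MEKi+CD40 tumors, a difference of −1.36 ± 0.22. Orc6, a subunit of the complex that marks replication origins, measured between 9.23 and 9.46 in MEKi tumors and 8.39, 8.51, 7.52 and 8.07 in MEKi+CD40 tumors, a difference of −1.20 ± 0.20. The origin-firing genes Gins1 (−1.72 ± 0.32, limma adjusted p = 0.0501) and Gins3 (−0.76 ± 0.14, limma adjusted p = 0.0502) lay just outside the threshold. In all 4 genes MEKi+CD40 tumor 3 was the lowest.

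Most of the 12 largest called decreases among the brightest probe sets of genes were in no list and were named for their size. Among all called probe sets the lowest difference was −2.76. Trip13, an ATPase that takes apart the mitotic checkpoint complex, measured 10.10, 10.01, 9.43 and 9.56 in MEKi tumors and 8.47, 8.62, 7.32 and 7.65 in MEKi+CD40 tumors, a difference of −1.76 ± 0.31 that was −1.64 without tumors 1 and 3. Pole2, a subunit of DNA polymerase epsilon, measured between 9.10 and 9.65 against 8.19, 8.43, 7.24 and 7.53, a difference of −1.53 ± 0.27. Atad5, which takes the sliding clamp off DNA, fell by 1.48 ± 0.28, the centromere gene Cenps by 1.38 ± 0.24 and Oip5, which helps to load centromeric histone, by 1.37 ± 0.24. Hirip3, a partner of the histone chaperone HIRA, fell by 1.48 ± 0.27. Further, Neto2, an auxiliary protein of kainate receptors, fell by 1.59 ± 0.22, the tRNA dihydrouridine synthase gene Dus4l by 1.55 ± 0.20 and the transcription factor gene Tfap4 by 1.33 ± 0.20. The MEKi+CD40 mean of Dus4l, 4.555, lay below background.

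The promoter of Pole2, a called gene that was not in the DNA replication list, is shown with its match to the letters TTTNGCGC in capitals. TTTNGCGC is a form of the site bound by E2F, the factor family that switches on replication genes. On both strands these letters occurred in 9 of the 26 DNA replication genes with a window (34.6%), in 9 of the 120 genes called lower that have one (7.5%) and in none of the 114 called higher. Of the 14452 measured genes with a window 2.32% held them, and of all windows 1.38%.
Pole2, chr12:69228141-69228440, - strand: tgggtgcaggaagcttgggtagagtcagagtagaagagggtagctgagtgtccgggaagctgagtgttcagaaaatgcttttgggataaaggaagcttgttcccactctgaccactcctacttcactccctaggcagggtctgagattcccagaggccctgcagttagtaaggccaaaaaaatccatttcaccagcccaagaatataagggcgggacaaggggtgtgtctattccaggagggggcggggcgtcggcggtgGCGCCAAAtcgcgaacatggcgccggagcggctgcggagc
The single match lies near the end of the window.

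Mitotic genes lay lower as well, with a smaller shift. All 32 had a lower mean, 15 did not overlap and none was called, and the median was −0.84 and −0.59 without tumors 1 and 3. Mybl2, a transcription factor of late cell cycle genes, differed by −1.76 ± 0.36, the kinesin gene Kif11 by −1.18 ± 0.25 and the checkpoint kinase gene Bub1b by −0.84 ± 0.18, at limma adjusted p-values between 0.0542 and 0.057. Mki67, which encodes the proliferation marker Ki67, measured 12.07, 11.79, 11.98 and 11.11 in MEKi tumors and 11.02, 11.02, 10.30 and 11.00 in MEKi+CD40 tumors. MEKi tumor 4 came close to the highest MEKi+CD40 tumors without reaching them, and the difference was −0.90 ± 0.25 (limma adjusted p = 0.085).

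Genes of ribosome biogenesis, the making of ribosomal RNA and its assembly in the nucleolus, lay lower, and 3 fell past the test. All 30 had a lower mean and 21 did not overlap, with a median of −0.73 and of −0.69 without tumors 1 and 3. Nolc1, a nucleolar phosphoprotein, measured between 10.34 and 10.65 in MEKi tumors and 9.30, 9.76, 8.50 and 9.10 in MEKi+CD40 tumors, a difference of −1.33 ± 0.24. Gar1, of the small nucleolar particles that modify ribosomal RNA, fell by 1.24 ± 0.21, and Rrp1b by 1.01 ± 0.17.

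The amino acid stress response, which ATF4 drives when amino acids are short, contributed Atf4 and Trib3. Atf4 measured 12.75, 12.36, 12.25 and 12.33 in MEKi tumors and 11.75, 11.55, 11.36 and 11.78 in MEKi+CD40 tumors, a difference of −0.81 ± 0.14. Trib3, a pseudokinase that ATF4 induces, measured between 9.86 and 10.61 against 8.63, 9.16, 8.43 and 9.18, a difference of −1.32 ± 0.22. Both kept a clear gap between the groups. Of the 16 genes in the list 13 had a lower mean and 7 did not overlap, with a median of −0.68 that was the same without tumors 1 and 3. Cth, which makes cysteine, had the largest difference (−2.49 ± 0.51, limma adjusted p = 0.0544), and Chac1, which degrades glutathione, differed by −1.29 ± 0.24 (limma adjusted p = 0.0501). Slc1a4, a transporter of neutral amino acids that was not in the list, fell by 1.32 ± 0.19.

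**Figure D4:**
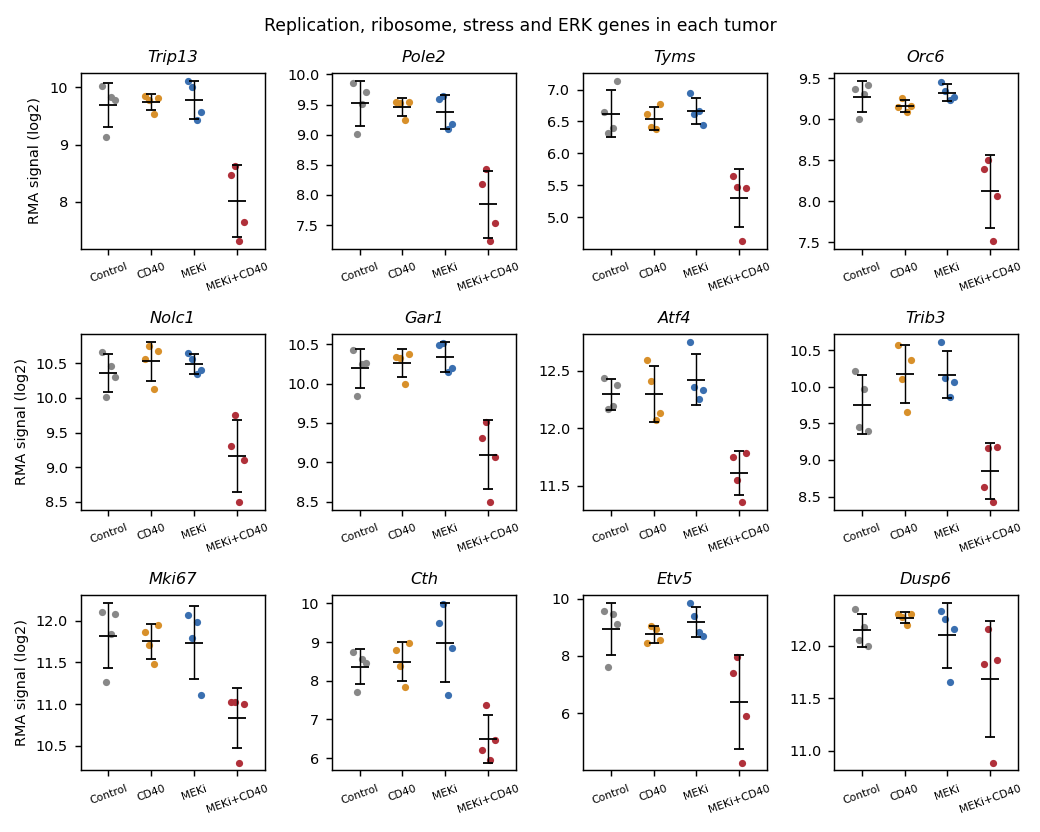
RMA signal on the log2 scale of 12 genes in each tumor of the 4 groups, with black bars for the mean and SD of 4 tumors and a separate vertical scale per panel. All MEKi+CD40 tumors lie below all MEKi tumors for each gene apart from Dusp6, which overlaps.

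Targets of the MEK/ERK cascade were examined because both groups received the inhibitor. Their score averaged 8.81 ± 0.16 (SD) in Control and 8.91 ± 0.14 in MEKi, so that it was not lower with the inhibitor alone at collection. It averaged 8.36 ± 0.51 in MEKi+CD40. Of 21 genes none was called, and the median was −0.42 with all tumors and −0.27 without tumors 1 and 3. Without overlap 5 lay lower and 1 higher, where 8.99% of all genes lay lower and 7.05% higher. Etv5, a transcription factor gene that ERK induces, measured 9.84, 9.40, 8.83 and 8.68 in MEKi tumors and 7.42, 7.96, 4.29 and 5.91 in MEKi+CD40 tumors, a difference of −2.79 ± 0.74 (limma adjusted p = 0.0798). MEKi+CD40 tumor 3 was the lowest by far, as it was for the feedback inhibitor gene Spry4, at 4.15 against 6.30 to 6.71 in the other MEKi+CD40 tumors, and for Myc, at 6.88 against 8.67 to 8.95. Spry4 differed by −1.23 ± 0.54 and Myc by −1.17 ± 0.42, and both by −0.64 without tumors 1 and 3. The phosphatase gene Dusp6, another feedback target, differed by −0.42 ± 0.27, and Epha4 was the 1 gene of the list that lay higher without overlap (0.66 ± 0.17, limma adjusted p = 0.0748). Dusp6 differed by −0.09 and Epha4 by 0.38 without tumors 1 and 3.

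Among p53 targets and inhibitors of cyclin-dependent kinases, Phlda3, which p53 induces and which restrains Akt, rose by 1.49 ± 0.22 and was the only called gene of 17. It measured 9.98, 9.56, 10.08 and 10.29 in MEKi tumors and 11.33, 11.56, 11.98 and 11.01 in MEKi+CD40 tumors. Sesn1, another p53 target, did not overlap (0.62 ± 0.13, limma adjusted p = 0.0551), while Mdm2, the ligase that p53 induces against itself, had a lower mean (−0.42 ± 0.12, limma adjusted p = 0.0921). The melanocyte list had a median of 0.05, with no called gene. Tyrp1, a melanin-synthesis enzyme gene, differed by −0.04 ± 0.08, and the pigment transporter gene Oca2 lay higher without overlap (0.97 ± 0.24, limma adjusted p = 0.068).

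The effect of the antibody with the inhibitor was set beside its effect without it, CD40 minus Control, which uses the other 8 tumors. The difference between both effects, the interaction, was tested on all 16 tumors, and no probe set was called. The smallest limma adjusted p was 0.0971, with 6424 probe sets at an unadjusted p under 0.05. Single tumors set this count, since 26 probe sets were called without MEKi+CD40 tumor 1 and 560 without MEKi+CD40 tumor 2.

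For the interferon lists both effects pointed up. The median of the type I interferon list was 0.90 for CD40 minus Control and 1.86 for MEKi+CD40 minus MEKi, and that of the interferon gamma list 1.01 and 3.14. The group means of the type I score show that the groups began from different levels, at 8.29 ± 0.62 (SD) in Control, 9.28 ± 0.45 in CD40, 7.08 ± 0.41 in MEKi and 9.03 ± 0.68 in MEKi+CD40. For Ifit1 the effect of the antibody was 0.86 without the inhibitor and 3.40 with it, and for Tmem140 0.95 and 3.75. The 2 effects lay closer together for Ubd, at 3.54 and 4.45, and for Il18bp, at 1.42 and 2.48. The interaction was called for none of these genes.

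For DNA replication, ribosome biogenesis and the amino acid stress response, the antibody's effect without the inhibitor was set beside the decrease with it. The median of the DNA replication list was −0.04 for CD40 minus Control and −1.33 for MEKi+CD40 minus MEKi. The replication score averaged 9.98 ± 0.35 in Control, 9.95 ± 0.12 in CD40, 9.91 ± 0.23 in MEKi and 8.60 ± 0.59 in MEKi+CD40. For ribosome biogenesis these medians were 0.11 and −0.73 and for the amino acid stress response 0.14 and −0.68. The ribosome biogenesis score averaged 10.03, 10.13, 10.11 and 9.35 in the same order, and the amino acid stress score 9.73, 9.91, 9.97 and 9.30. Trip13 stood at a mean of 9.69 in Control, 9.74 in CD40 and 9.78 in MEKi and at 8.02 in MEKi+CD40, with an interaction of −1.81 that was not called. The interaction was −1.50 for Nolc1 and −0.82 for Atf4, neither called. Kcnj13 had an effect of 0.10 without the inhibitor and of 2.98 with it, and this difference was not called either. These genes, and the interferon genes above, were named by their difference with the inhibitor, which is also 1 part of the interaction. A gap between both effects was thus favoured by the choice of genes.

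**Figure D5:**
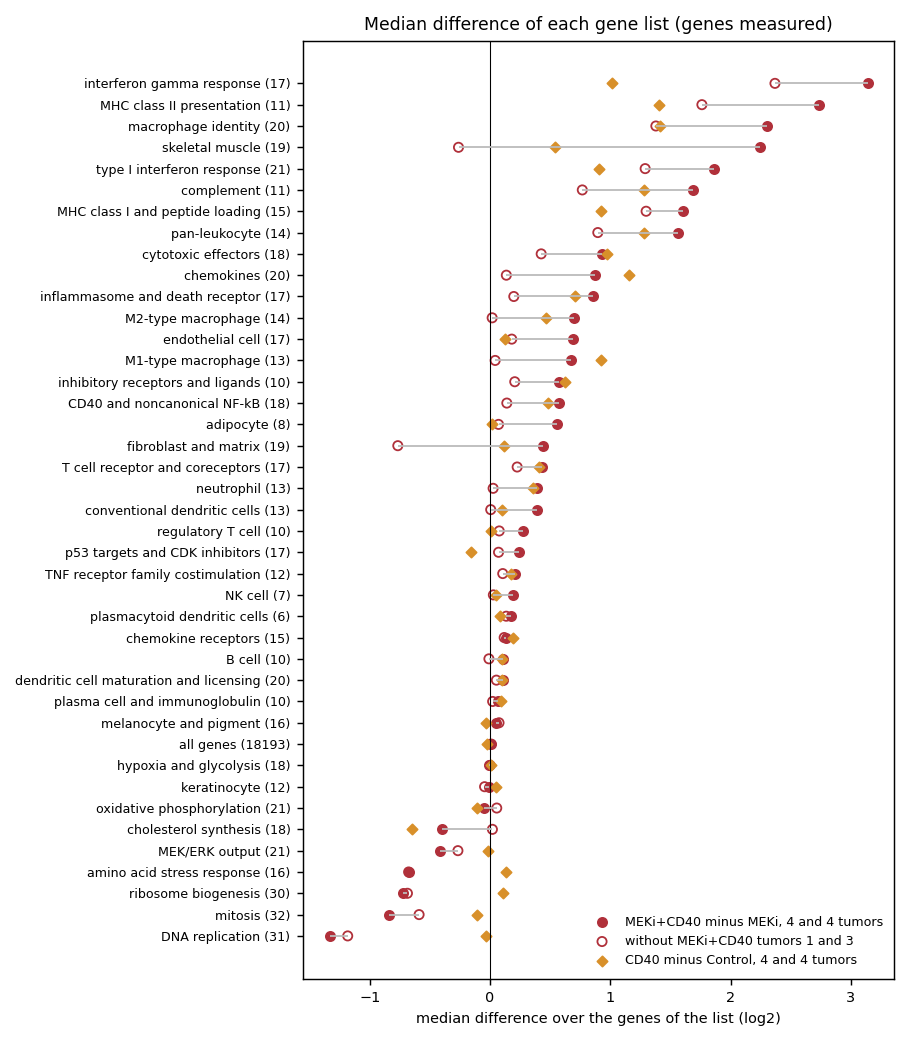
Median difference over the genes of each list on the log2 scale, with the number of measured genes in parentheses, for MEKi+CD40 minus MEKi with 4 and 4 tumors (filled circles), the same without MEKi+CD40 tumors 1 and 3 (open circles) and CD40 minus Control (diamonds). The median falls from 2.25 to −0.26 without these tumors for skeletal muscle, while DNA replication stays between −1.33 and −1.19 and lies at −0.04 for CD40 minus Control.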

How the data were processed

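RNA of 16 tumors was hybridised to Affymetrix mouse expression arrays, and the authors deposited log2 values made by RMA in Chipster. No RMA version is given in the sources used. No other normalization was applied to them, and groups came from the sample labels. Of 45101 probe sets, 64 controls were left out, and 34945 of the 45037 tested carry 1 symbol, 932 several and 9160 none in the platform annotation, which can be old.

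The 8 arrays were fitted with lmFit and eBayes of limma 3.58.1 (R 4.3.3), and the interaction on all 16. Nothing in the labels says more than that each tumor is a separate sample, so p-values measure the spread between tumors. Arrays within a group correlated at r between 0.9544 and 0.9946, and the median SE of a difference was 0.118. The number of arrays limits the precision.

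The 40 gene lists, with 616 measured genes, and the rule for named genes were chosen with earlier results of these data known. Named genes are the 12 largest called differences per direction without overlap, the 4 list members with the smallest p in each list, and a set of fixed names. Background was the 95th percentile of 43 olfactory receptor probe sets. Alternatives covered the arrays in the fit, the replicate number as a block, a low-signal filter, 1 probe set per gene or their mean, median centring, cyclic loess, eBayes with trend and robust, array weights, the muscle score as a covariate, and leaving out tumors. A threshold of 0.1 was added after seeing the data. The fits were tested on simulated data. Figures were drawn with matplotlib 3.10.9 and tables made with pandas 2.3.3 and numpy 2.4.6, in Python 3.11.15.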

Additional observations from a re-analysis of the deposited data

Results flagged for a closer look

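Within a group of 4 tumors, a tumor was picked out when its gap to the nearest other tumor exceeded, as a share of the range of the group, Dixon's 95% critical value. Of 282 groups of named genes and list scores, 15 met this, and chance alone picks out about 1 in 20. MEKi+CD40 tumor 4 was the low one for Ctso at 7.34 against 8.91 or more, for Il18bp at 7.44 against 9.33 or more, for H2-DMa at 7.50 against 10.19 or more, for Cd74 at 9.21 against 11.99 or more, for Psmb8 at 8.66 against 11.54 or more, and for the score of MHC class I and peptide loading at 10.30 against 11.44 or more. MEKi+CD40 tumor 3 was the low one for Mki67 at 10.30, Myc at 6.88 and Spry4 at 4.15, where the other MEKi+CD40 tumors lay at or above 11.00, 8.67 and 6.30. MEKi+CD40 tumor 1 was high for the score of TNF receptor family costimulation at 5.55 against 5.27 or less.

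Among MEKi tumors, tumor 3 was the high one for the scores of M1-type macrophages at 6.13 against 5.21 or less, neutrophils at 4.94 against 4.64 or less, and B cells at 4.71 against 4.62 or less. MEKi tumor 1 was high for Ubd at 5.06 against 4.53 or less, and MEKi tumor 4 for Kcnj13 at 12.10 against 10.09 or less.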

How the results depend on the processing

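The counts of called probe sets depended on the processing. In each alternative of the 8-array fit, every probe set called in the main comparison and still tested kept its sign. For the called genes, whose groups did not overlap, leaving out or weighting tumors could not turn a sign. The 16-array fit, the low-signal filter, 1 probe set per gene, the replicate block, and trend and robust left each difference unchanged. Only median centring, cyclic loess and the muscle covariate could have turned the sign of a called gene. Higher and lower calls numbered 237 and 281 as reported. They numbered 1704 and 2995 with all 16 arrays in 1 fit, 599 and 903 with the low-signal filter, 368 and 485 with 1 probe set per gene, 253 and 348 with trend and robust, 917 and 1533 with array weights, and 1479 and 2223 at an adjusted p under 0.1. They were 0 and 0 with the replicate block, median centring, cyclic loess, the muscle score as a covariate, and without MEKi+CD40 tumors 1 and 3. In limma the smallest adjusted p was then 0.0742, 0.0536, 0.0511, 0.1178 and 0.1374. Leaving out 1 tumor gave 0 to 387 higher and 0 to 1070 lower. The labels do not say whether equal numbers in the titles pair the tumors. Deviations of equally numbered tumors correlated at −0.063, 0.307, 0.095 and 0.071, which cannot settle whether a pairing existed.

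Probe sets without overlap numbered 2349 higher and 3527 lower as reported, 1938 and 3950 after median centring, 3126 and 3054 after cyclic loess, and 2024 and 3109 of 27880 with the filter. The interaction gave 0 calls with the replicate block, trend and robust, the low-signal filter and without the 3 tumors with muscle transcripts, and 0 to 560 when 1 tumor was left out, of which 26 came without MEKi+CD40 tumor 1, 560 without MEKi+CD40 tumor 2 and 0 without each of the other tumors. Of 101 genes examined for the text, the 40 called kept their direction in each alternative of the 8-array fit. This was fixed beforehand where tumors were left out, since their groups did not overlap. Among these 101, the direction turned for uncalled genes only. For Foxp3 the difference was 0.00 with cyclic loess and with the covariate, 0.01 without MEKi+CD40 tumors 1 and 3, and −0.04 to 0.02 when 1 tumor was left out. For Nos2 it was −0.16 to 0.01 when 1 tumor was left out. For Mrc1 it was −0.04 with the covariate, and for Arg1 −0.25 without MEKi+CD40 tumors 1 and 3 and −0.12 with the covariate. For Tyrp1 it was 0.04 with cyclic loess, 0.00 with array weights, 0.01 without MEKi+CD40 tumors 1 and 3 and with the covariate, and −0.06 to 0.01 when 1 tumor was left out. The cause was not tested. Signal over background limits low genes, since 39.9% of probe sets lay below background. Trpm1, Cycs, Il12b and Prf1 have 1 or more other probe sets with the opposite sign at an unadjusted limma p under 0.05. For Trpm1, of the melanocyte list, these lay at 1.45, 0.93 and 1.65, against −0.15 for its brightest probe set.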

Other observations

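Of the 282 called genes, 259 were in no list.

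The lists given here had no called gene. The endothelial cell list had a median of 0.69 with 16 of 17 genes higher, the adipocyte list of 0.56 with 7 of 8 higher, and without MEKi+CD40 tumors 1 and 3 these medians were 0.18 and 0.07. The inflammasome and death receptor list had a median of 0.86 with 16 of 17 genes higher and 3 without overlap, and the inhibitory receptors and ligands of 0.58 with all 10 higher and 3 without overlap. Without the same tumors these were 0.20 and 0.20. The median was −0.01 for hypoxia and glycolysis and −0.05 for oxidative phosphorylation. For cholesterol synthesis it was −0.40 with all tumors, 0.02 without MEKi+CD40 tumors 1 and 3, and −0.65 for CD40 minus Control. The neutrophil list had a median of 0.39, and 0.02 without MEKi+CD40 tumors 1 and 3, and its alarmin gene S100a8 measured 9.04 and 8.47 in these tumors against 4.57 and 5.17 in MEKi+CD40 tumors 2 and 4. The B cell, plasma cell, NK cell and keratinocyte lists had medians of 0.11, 0.07, 0.19 and −0.01. Without MEKi+CD40 tumors 1 and 3 these were −0.01, 0.02, 0.03 and −0.05. In the same order, 3 of 10, 7 of 10, 2 of 7 and 3 of 12 genes had a mean above background in 1 or both groups. For genes below background in both groups, the difference cannot show whether the transcript changed.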
